A study of Mus musculus with 11 samples.

Results

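The genes described here are 10 genes of the prostaglandin and leukotriene pathway, chosen by name, of 23282 entries counted in each of 11 RNA-seq libraries. They are the receptor genes Ptger4 and Ptgir, the cyclooxygenase genes Ptgs1 and Ptgs2, the terminal synthase genes Ptges, Ptges3, Hpgds and Tbxas1, and the leukotriene genes Alox5ap and Ltc4s. The libraries came from macrophages of mouse colon with the surface pattern CD45+ CD11b+ Ly6G- Ly6C- MHCII+ CD64+. WT mice and Csf1r-EP4-/- mice were compared at 2 times of a colitis course: WT at day 0 (2 libraries) and day 39 (3 libraries), and Csf1r-EP4-/-, here called knockout or KO, at day 0 (3 libraries) and day 39 (3 libraries). The labels of all 4 groups, day 0 included, carry the same treatment text, 2.5% dextran sodium sulphate (DSS) given by mouth over 5 days. DSS damages the gut epithelium, and DSS colitis is a common mouse model. Ptger4 encodes EP4, through which cells sense prostaglandin E2. The driver of the deletion, the deleted exons, the age of the mice and whether each library came from a separate mouse are not given in the sources used here, so p-values measure only the spread between these libraries.

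Prostanoids are short-lived lipid signals made from arachidonic acid. Phospholipases release arachidonic acid, a cyclooxygenase turns it into prostaglandin H2, and a terminal synthase turns that into prostaglandin E2, prostaglandin D2, prostacyclin or thromboxane, each of which acts on its own G protein-coupled receptors. Leukotrienes are made from the same acid by 5-lipoxygenase, which needs the helper protein FLAP. In the gut, prostaglandin E2 acting through EP4 is known for protecting the epithelium and for restraining macrophage activation.

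The promoter windows of 4 of these genes are shown because the results turn on them. Ptgs1 and Ptgs2 encode enzymes of the same reaction but differed in how many libraries held their reads, and Hpgds and Tbxas1 encode enzymes that draw on the same prostaglandin H2 and stood on opposite sides of the wild-type time course. The sequences are RefSeq windows (build GRCm38.p6) of 300 bases, 250 before and 50 after 1 listed start of each gene, written 5′ to 3′ on the strand of the gene, and 9 of the 10 genes had such a window. For Ptgs1, Hpgds and Tbxas1 the listed start lies inside the span of the gene in RefSeq, not at its outermost end. Ptgs1 lies at chr2:36230176-36230475 (+), Ptgs2 at chr1:150099781-150100080 (+), Hpgds at chr6:65144681-65144980 (-) and Tbxas1 at chr6:38918736-38919035 (+). Capitals mark matches on either strand to TATAAA (the TATA box), TGACG (core letters of the cAMP response element) or GGGCGG (the GC box).
Ptgs1: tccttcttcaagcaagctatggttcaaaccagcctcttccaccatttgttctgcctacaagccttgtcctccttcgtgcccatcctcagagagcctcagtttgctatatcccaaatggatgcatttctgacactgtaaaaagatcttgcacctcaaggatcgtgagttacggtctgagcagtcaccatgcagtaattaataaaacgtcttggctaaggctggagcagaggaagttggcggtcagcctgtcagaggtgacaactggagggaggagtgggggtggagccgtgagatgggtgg
Ptgs2: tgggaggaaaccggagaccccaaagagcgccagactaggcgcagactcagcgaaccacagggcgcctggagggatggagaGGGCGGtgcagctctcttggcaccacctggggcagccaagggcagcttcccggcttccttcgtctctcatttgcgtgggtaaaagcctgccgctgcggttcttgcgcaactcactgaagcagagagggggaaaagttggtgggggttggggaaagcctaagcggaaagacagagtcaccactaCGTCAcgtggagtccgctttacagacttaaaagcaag
Hpgds: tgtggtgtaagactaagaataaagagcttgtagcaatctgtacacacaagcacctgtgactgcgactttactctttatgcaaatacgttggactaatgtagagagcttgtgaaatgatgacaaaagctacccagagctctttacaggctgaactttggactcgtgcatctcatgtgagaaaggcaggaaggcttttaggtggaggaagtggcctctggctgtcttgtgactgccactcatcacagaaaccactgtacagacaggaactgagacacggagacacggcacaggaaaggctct
Tbxas1: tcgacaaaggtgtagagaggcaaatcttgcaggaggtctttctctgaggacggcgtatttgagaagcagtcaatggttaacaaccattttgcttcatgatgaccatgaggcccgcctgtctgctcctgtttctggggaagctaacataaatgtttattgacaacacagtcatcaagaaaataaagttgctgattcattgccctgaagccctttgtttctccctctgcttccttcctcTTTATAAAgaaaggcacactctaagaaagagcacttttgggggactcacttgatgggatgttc
The Tbxas1 window held TATAAA on both strands, as overlapping matches whose leftmost bases lie at -13 and -11 from the start. The Ptgs2 window held GGGCGG at -170 and TGACG, read on the opposite strand, at 14. The Ptgs1 and Hpgds windows held none of the 3 motifs. Of 32851 promoter windows of this length, 13.6% held TATAAA, 20.8% held TGACG and 35.7% held GGGCGG, so these are common letters, and a match is a description of the sequence only. The libraries were made with a kit that reads near the 3′ end of transcripts, so the counts do not show which start was used.

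The libraries held 4003299 to 14207919 counts. Capture of single genes was uneven: of 110 values (10 genes in 11 libraries), 51 were 0, 23 lay between 1 and 9, 6 between 10 and 99, and 30 were at 100 or more. At least 10 counts were present in 36 of the 110 values (32.7%). Most genes therefore read as either absent or abundant in a given library, and 28.0% to 54.8% of all 6987 tested entries reached 10 counts in a library. Levels are given as CPM, the count scaled to the TMM-adjusted library size. A count of 0 allows a level of up to 3 counts, which was 0.196 to 0.911 CPM depending on the library and covers counting error only. In sorted bulk samples, fewer cells of a type and less RNA per cell cannot be told apart.

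**Figure D1:**
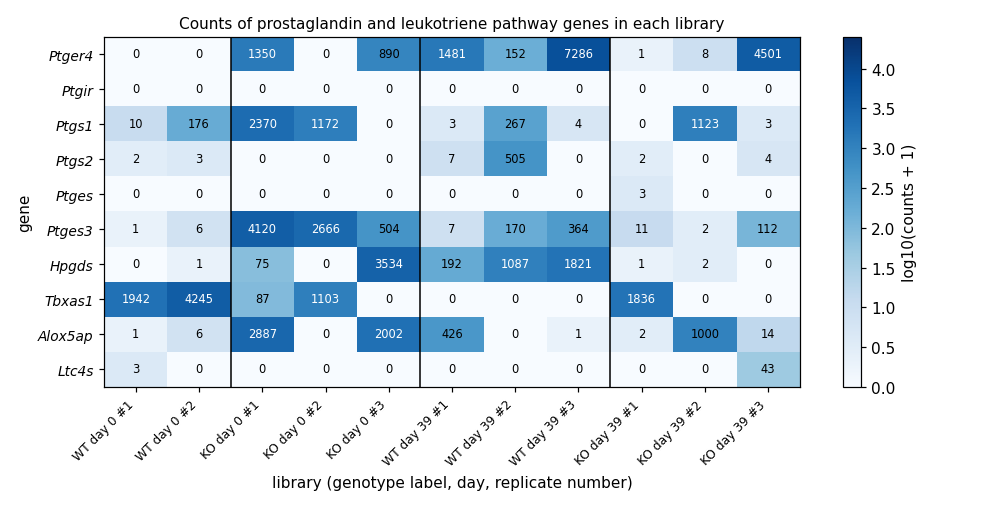
Raw counts of the 10 genes (rows) in the 11 libraries (columns, grouped by genotype label and day), with colour giving log10(counts + 1). Values from 100 to 7286 stand beside values of 0 within most groups, and Ptgir has 0 counts in all 11 libraries.

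Of the 10 genes, 6 passed the filter on low counts and were tested (Ptger4, Ptgs1, Ptges3, Hpgds, Tbxas1 and Alox5ap), and 4 were not (Ptgir, Ptgs2, Ptges and Ltc4s). In the edgeR quasi-likelihood test with Benjamini-Hochberg adjustment over all entries, 0 of the 6 passed 0.05 in any of 6 contrasts. The share of all tested entries that passed was 0.0143% for KO against WT at day 0, 0.0286% for KO against WT at day 39, 0.0143% for day 39 against day 0 in WT and 0.157% for the same in KO. It was 0% for the interaction of genotype and day, and 0.301% for day 39 against day 0 over both genotypes. With so few entries passing, 0 of 6 is not a result about these genes. At an unadjusted p under 0.05, 1, 1, 2, 0, 3 and 2 of the 6 genes passed in these contrasts in that order, against 7.99%, 7.28%, 6.68%, 18.2%, 14.4% and 19.2% of all entries. By plain separation of the libraries in CPM, KO was above WT at day 0 for 1 of the 6 (Ptges3; 6.73% of all entries) and below for 1 (Tbxas1; 5.25%), and at day 39 it was above for 0 (3.41%) and below for 1 (Hpgds; 3.99%). Day 39 was above day 0 in WT for 3 (Ptger4, Ptges3 and Hpgds; 12.7%) and below for 1 (Tbxas1; 4.72%), in KO above for 0 (8.07%) and below for 1 (Ptges3; 3.21%), and over both genotypes above for 0 (1.6%) and below for 0 (0.157%). DESeq2 and limma-voom called more: in the order of the contrasts above, DESeq2 called 17.9%, 8.37%, 16.9%, 16.4%, 13.4% and 17.4% of all entries, and 3, 1, 2, 1, 3 and 1 of the 6 genes, and limma-voom called 2.55%, 0.487%, 2.42%, 2.96%, 0.272% and 2.89% of all entries, and 0, 1, 3, 0, 0 and 0 of the 6. DESeq2 gave no adjusted p for Tbxas1 in any contrast, and entries without one count as not called.

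Ptger4, the gene of the receptor named in the strain, was examined first. In day 0 KO it had 1350, 0 and 890 counts in replicates 1, 2 and 3, in day 39 KO it had 1, 8 and 4501, in day 0 WT it had 0 and 0, and in day 39 WT it had 1481, 152 and 7286. Reads were thus abundant in 3 of 6 libraries labelled knockout and absent from both day 0 WT libraries, so Ptger4 reads did not follow the labels, and every genotype direction below refers to labels. A read near the 3′ end does not show whether an internal exon is missing, so these counts cannot decide whether a label is right. In order of mean level, Ptger4 was at 691 CPM ± 811 (SD, n = 3) in day 39 WT, 433 CPM ± 748 (n = 3) in day 39 KO and 91.7 CPM ± 112 (n = 3) in day 0 KO. Neighbours in that order overlapped.

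In wild type every day 39 library was above both day 0 libraries for Ptger4. The day 39 mean was at least 1112-fold higher, against the day 0 floor of 3 counts per library, while its libraries ranged from 28.0 to 1596 CPM. The same separation held for 12.7% of tested entries, and the edgeR adjusted p was 0.414, while limma-voom gave an adjusted p of 0.00167 and DESeq2 one of 1.94e-12. At day 0, KO against WT gave adjusted p-values for Ptger4 of 0.381 in edgeR, 0.433 in limma-voom and 8.52e-11 in DESeq2. Over both genotypes, Ptger4 had the smallest adjusted p of the 6 genes in any contrast, with a log2 fold change of 8.61 ± 2.49 (SE) at day 39 and an edgeR adjusted p of 0.0794. It was at 10 counts or more in 4 of 6 day 39 libraries and 2 of 5 day 0 libraries. The median of all entries in that contrast was 0.76 on the log2 scale. DESeq2 gave an adjusted p of 1.6e-09 there, edgeR without robust dispersions 0.0439 and limma-voom 0.196. Single libraries moved the value: without day 0 KO replicate 1 the edgeR adjusted p was 0.0374, while without day 39 KO replicate 3 the log2 fold change was 4.22 and the adjusted p was 0.381. The sum of 14 colon epithelial markers, 0 of which were absent everywhere, moved with day too. It was 74.7 to 1776 CPM at day 0 and 1858 to 11370 CPM at day 39, and the part of epithelium in the Ptger4 values was not tested.

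Ptgir, the gene of the prostacyclin receptor IP, which like EP4 signals through Gs and cAMP, had 0 counts in every library. At these depths that allows up to 3 counts per library, and its level was below 0.911 CPM in each.

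Of the cyclooxygenase genes, Ptgs1 was read in more libraries than Ptgs2. Ptgs1 encodes the constitutive enzyme COX-1, and Ptgs2 the inducible COX-2. Ptgs1 had 10 and 176 counts in day 0 WT, 2370, 1172 and 0 in day 0 KO, 3, 267 and 4 in day 39 WT, and 0, 1123 and 3 in day 39 KO. It reached 10 counts in 6 libraries spread over all 4 groups, and every pair of groups overlapped. Its mean level was 177 CPM ± 192 (SD, n = 3) in day 0 KO, 74.3 CPM ± 128 (n = 3) in day 39 KO, 21.6 CPM ± 28.1 (n = 2) in day 0 WT and 17.0 CPM ± 27.8 (n = 3) in day 39 WT. These neighbours did not differ beyond their spread, and the largest fitted difference, KO against WT at day 0, was 3.03 ± 4.61 on the log2 scale (SE; adjusted p = 0.842 in edgeR).

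Ptgs2 had 505 counts (92.9 CPM) in day 39 WT replicate 2 and at most 7 counts in each of the other 10 libraries. The other day 39 WT libraries had 7 and 0, both day 0 WT libraries had 2 and 3, day 39 KO had 2, 0 and 4, and all 3 day 0 KO libraries had 0. A single library therefore carried 505 of the 523 Ptgs2 counts, Ptgs2 did not pass the filter, and no difference between groups was detectable at this depth.

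The prostaglandin E synthase genes differed from each other. Ptges encodes the inducible, membrane-bound enzyme that works with COX-2, and it had 3 counts in day 39 KO replicate 1 and 0 in the other 10 libraries. Ptges3 encodes p23, a co-chaperone of Hsp90 that also has prostaglandin E synthase activity, and it was the gene of the set with the highest median level, 31.3 CPM over the 11 libraries. It had 4120, 2666 and 504 counts in day 0 KO, 1 and 6 in day 0 WT, 11, 2 and 112 in day 39 KO, and 7, 170 and 364 in day 39 WT. RefSeq lists a pseudogene copy of Ptges3 and the related gene Ptges3l, so its counts are uncertain where reads were shared.

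For Ptges3 all 3 libraries labelled day 0 KO stood above both day 0 WT libraries, a separation that 6.73% of tested entries showed. The level was 346 CPM ± 315 (SD, n = 3) in day 0 KO and 0.796 CPM ± 0.873 (n = 2) in day 0 WT, or 8.73 ± 5.80 on the log2 scale (SE; adjusted p = 0.397 in edgeR and 0.00244 in DESeq2), while the median of all entries in this contrast was 1.08. At day 39 it was 11.8 CPM ± 17.7 (n = 3) in KO and 37.7 CPM ± 39.2 (n = 3) in WT, where the groups overlapped (-1.67 ± 3.51 on the log2 scale, SE; adjusted p = 0.993 in edgeR). The difference between these genotype contrasts did not pass in edgeR (-10.40 ± 6.62 SE, adjusted p = 0.438) and passed in DESeq2 (adjusted p = 0.00846). Within KO all day 39 libraries were below all day 0 libraries, the nearest being 32.3 and 33.0 CPM (edgeR adjusted p = 0.527), and within WT all day 39 libraries were above both day 0 libraries, the nearest being 2.13 and 1.41 CPM (edgeR adjusted p = 0.562). The colon epithelial sum rose with day in both genotypes, from 74.7 to 1341 CPM to 4188 to 11370 CPM in KO and from 928 to 1776 CPM to 1858 to 6937 CPM in WT. Its part in the Ptges3 values was not tested.

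**Figure D2:**
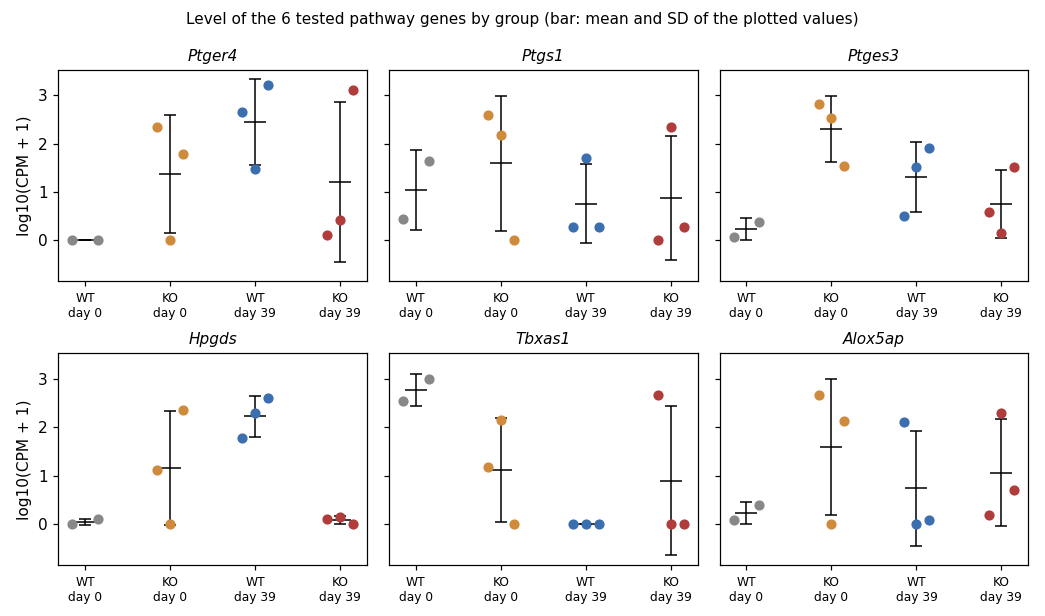
Level of the 6 tested genes as log10(CPM + 1), with 1 point per library and a bar for the mean and SD of the plotted values in each group. Hpgds and Tbxas1 separate day 0 WT from day 39 WT in opposite directions, while Ptgs1 and Alox5ap have high and low libraries in most groups.

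Hpgds and Tbxas1 separated the wild-type days in opposite directions. Hpgds encodes hematopoietic prostaglandin D synthase, which is known from macrophages, mast cells and T cells. It had 0 and 1 counts in day 0 WT and 192, 1087 and 1821 in day 39 WT. In the libraries labelled knockout it ran the other way: the day 0 counts were 75, 0 and 3534, and those of day 39 were 1, 2 and 0. The day 39 WT libraries therefore stood above every day 0 WT and every day 39 KO library, whereas the day 0 KO libraries ranged from 0 to 231 CPM.

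In wild type Hpgds was at 219 CPM ± 171 (SD, n = 3) at day 39 and at 0.118 CPM ± 0.167 (n = 2) at day 0. With 1 count in the lower group, the pooled ratio was 2294, with an exact 95% interval of 411 to 90652 that covers counting error only (edgeR adjusted p = 0.414). The same separation held for 12.7% of tested entries, and 1.33% of them had 1 count or fewer in both day 0 WT libraries and at least 100 in all 3 day 39 WT libraries, a rule chosen after the values were seen. At day 39 the pooled ratio of WT to KO was 963 (exact 95% interval 329 to 4674, edgeR adjusted p = 0.491), and 3.99% of tested entries separated in that direction. The difference between the time courses of the genotypes did not pass in edgeR (adjusted p = 0.324), nor did day 39 KO against day 0 KO (adjusted p = 0.322). Other tests differed: DESeq2 gave adjusted p-values of 0.0145, 0.00523, 0.00458, 0.0088 and 4.96e-05 for Hpgds in the 2 genotype contrasts, the WT and KO time contrasts and the interaction, and limma-voom gave 0.0135 for the WT time contrast and 0.038 for KO against WT at day 39.

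The library with the highest Hpgds count, day 0 KO replicate 3, also held mast cell markers, with 3862 counts of Mcpt4, 2222 of Cpa3, 1935 of Cma1 and 17 of Mcpt1, and 0 of Kit and Tpsb2. The other libraries with mast cell markers at 10 counts or more were day 0 KO replicate 2, with 2667 counts of Tpsb2 and 0 of Hpgds, and day 39 KO replicate 2, with 947 counts of Kit and 2 of Hpgds. Over the 11 mast cell genes, 5 of which had 0 counts in all libraries, the sum ranged from 0 to 526 CPM in day 0 KO, 0 to 0.471 in day 0 WT, 0 to 187 in day 39 KO and 0 to 0.304 in day 39 WT. In the 3 day 39 WT libraries Hpgds was at 58.3, 200 and 399 CPM. The sum of the colon epithelial genes moved with day in the same WT libraries, from 928 and 1776 CPM at day 0 to 6937, 2914 and 1858 CPM at day 39. The part of mast cells and of epithelium in the Hpgds values was not tested.

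Tbxas1 encodes thromboxane A synthase, which makes the platelet-activating and vessel-constricting thromboxane A2 and is also expressed in macrophages. It had 1942 and 4245 counts in day 0 WT and 0, 0 and 0 in day 39 WT. In the libraries labelled knockout the day 0 counts were 87, 1103 and 0, and those of day 39 were 1836, 0 and 0. Both day 0 WT libraries were above all day 39 WT libraries. The day 0 mean, 674 CPM ± 462 (SD, n = 2), was at least 953-fold higher, against the day 39 floor of 3 counts per library. For each day 0 library alone this bound was 491-fold in replicate 1, at 347 CPM, and 1420-fold in replicate 2. They were also above all 3 day 0 libraries labelled knockout (edgeR adjusted p = 0.568), whereas the KO groups of both days overlapped.

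Separation in this direction held for 4.72% of tested entries, and the edgeR adjusted p for Tbxas1 in WT over time was 0.414. Of 388 entries with at least 1000 counts in both day 0 WT libraries, 10 (2.58%) had 0 counts in all 3 day 39 WT libraries, a rule chosen after the values were seen. limma-voom gave an adjusted p of 1.71e-05 for this contrast, and DESeq2 gave no adjusted p for Tbxas1. At day 39 the libraries labelled knockout were at 158 CPM ± 274 (SD, n = 3), at least 224-fold above the WT floor, but all of it came from replicate 1 (edgeR adjusted p = 0.491). Over both genotypes Tbxas1 had a log2 fold change of -6.67 ± 2.65 (SE) at day 39, with an edgeR adjusted p of 0.192. Without day 39 KO replicate 1, no library of day 39 held any Tbxas1 count (edgeR adjusted p = 0.243). Among the platelet markers, Itga2b, Gp9, Gp1ba and Treml1 had 0 counts in all 11 libraries, while 3 others were read: Pf4, which resident macrophages also express, had 3 to 8282 counts, Gp1bb had up to 5073 and Ppbp had 922 in 1 library. In day 0 WT replicate 2, the library with the highest Tbxas1 count, Gp1bb had 2766 counts, and in replicate 1 it had 0. The sum of the 7 platelet genes was 1012 to 1480 CPM in day 0 WT, 672 to 1074 in day 39 WT, 579 to 1026 in day 0 KO and 259 to 1730 in day 39 KO. The sum of the colon epithelial genes was higher in all day 39 WT libraries than in both day 0 WT libraries, the nearest being 1858 and 1776 CPM. Some single genes overlapped, such as Muc2, with 4225 counts in day 0 WT replicate 1 and 121 in day 39 WT replicate 3. The part of platelets and of epithelium in the Tbxas1 values was not tested. In RefSeq the Tbxas1 locus overlaps 7 other genes, Hipk2 among them, so its counts are uncertain.

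Alox5ap and Ltc4s belong to the leukotriene branch. Alox5ap encodes FLAP, which presents arachidonic acid to 5-lipoxygenase. It had 2887, 0 and 2002 counts in day 0 KO, 1 and 6 in day 0 WT, 2, 1000 and 14 in day 39 KO, and 426, 0 and 1 in day 39 WT. High and low libraries occurred in every group except day 0 WT, where both were low. The mean level was 198 CPM ± 239 (SD, n = 3) in day 0 KO, 67.4 CPM ± 113 (n = 3) in day 39 KO, 43.2 CPM ± 74.6 (n = 3) in day 39 WT and 0.796 CPM ± 0.873 (n = 2) in day 0 WT, and every pair of groups overlapped. The day 0 genotype contrast gave 7.93 ± 5.87 on the log2 scale (SE; adjusted p = 0.444 in edgeR).

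Ltc4s encodes leukotriene C4 synthase, the first enzyme of the cysteinyl leukotrienes. It had 43 counts (12.4 CPM) in day 39 KO replicate 3, 3 in day 0 WT replicate 1 and 0 in the other 9 libraries. Alox5, the 5-lipoxygenase gene itself, had 1110 and 2221 counts in day 0 KO replicates 1 and 2 and at most 1 count in the other 9 libraries. Of these 3 leukotriene genes, Alox5 and Alox5ap were therefore both abundant in a single library, day 0 KO replicate 1. Tuft cells of the epithelium also express Alox5 and Alox5ap, and the other 10 tuft cell markers listed had at most 2 counts in any library. Mast cells, eosinophils and neutrophils express leukotriene genes as well. Day 0 KO replicate 3, with 2002 Alox5ap counts, held the mast cell markers given above. It also held 4081 counts of Ear2, 581 of Ear1 and 649 of Csf3r. The library with the highest Alox5ap count, 2887, was day 0 KO replicate 1. It had a mast cell sum of 0 CPM, 0 counts of Ear1 and of Ear2, and 5 of Csf3r. Day 39 KO replicate 2, with 1000 Alox5ap counts, had 947 of Kit and 0 of Ear1 and Ear2. Day 39 WT replicate 1, with 426, had 1 of Kit, 0 of Ear1 and Ear2 and 303 of the neutrophil gene Mmp8. The sum of the 6 eosinophil genes, 4 of which (Prg2, Epx, Siglecf and Ccr3) were at 0 in all libraries, was 0 to 305 CPM in day 0 KO, 0 in day 0 WT, 0 to 108 in day 39 KO and 0 to 62.0 in day 39 WT. That of the 8 neutrophil genes, 0 of which were at 0 everywhere, was 0.257 to 42.5 CPM in day 0 KO, 2.36 to 85.4 in day 0 WT, 1.58 to 236 in day 39 KO and 0.184 to 147 in day 39 WT. The part of these cells, tuft cells included, in the Alox5ap and Alox5 values was not tested.

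The 6 tested genes differed in which libraries held them. Ptges3, detected in 7 of the 11 libraries, shared 5 of the 6 Ptger4 libraries, and Alox5ap had 4 of its 5 among them. The share of all entries with such overlaps was not computed, so these are counts only. Hpgds reached 10 counts in 5 libraries, each of which also had Ptger4 at 10 counts or more. Of 674 tested entries detected in exactly 5 libraries, 10 (1.48%) fell wholly within the 6 Ptger4 libraries. Tbxas1, also detected in 5 libraries, shared 1 with Ptger4, 1 with Hpgds, 1 with Alox5ap, 3 with Ptges3 and 4 with Ptgs1. At most 1 shared library with Ptger4 was found for 17 of the 674 entries (2.52%). These comparisons were chosen after the counts were seen and rest on 11 libraries. Only day 0 KO replicate 1 held all 6 genes at 10 counts or more, and the other libraries held 2 to 4 of the 6. In both day 0 WT libraries Tbxas1 made up 99.1% and 95.7% of the counts of the 10 genes, and in day 39 KO replicate 1 it made up 98.9%.

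**Figure D3:**
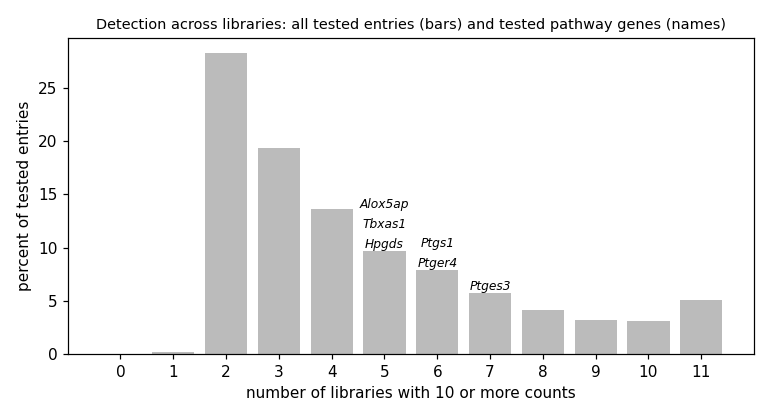
Bars give the percent of the 6987 tested entries that had 10 or more counts in a given number of libraries, and names mark the 6 tested pathway genes. The genes lie at 5 to 7 libraries, and 5.08% of all entries reached 10 counts in all 11.

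For Ptges3, the gene with the highest median level, the entries with the most similar pattern over the 11 libraries were Slc25a4 (Spearman rho 0.79), Fcgr3 (0.74) and Cox5b (0.72), of 794 entries with at least 10 counts in 9 or more libraries. Of those 794, 4.16% had a rho above 0.5. The points share library depth and scaling, and these values are descriptions only.

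**Figure D4:**
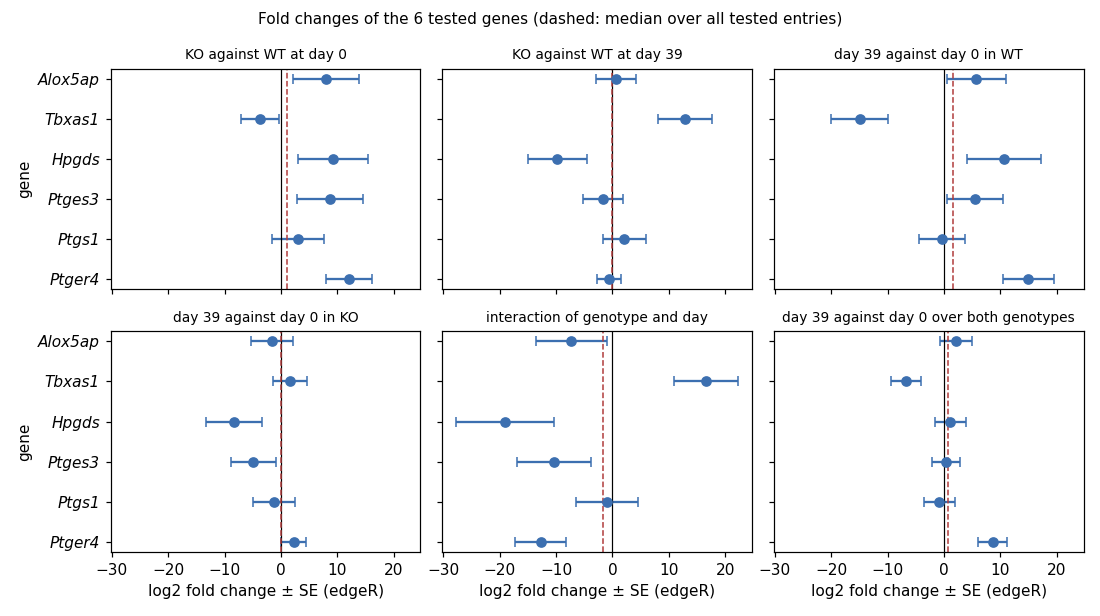
Fitted log2 fold changes with SE from edgeR for the 6 tested genes in the 6 contrasts, with a dashed line at the median of all tested entries. Tbxas1 lies opposite to Ptger4 and Hpgds in the day 0 genotype contrast, the wild-type time contrast and the interaction, and values against a group with 0 to 3 counts per library depend on the prior count of the fit.

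Where the 6 genes are set against each other in the fit, Tbxas1 had the opposite sign to Hpgds in all 6 edgeR contrasts. These contrasts combine the same 4 group coefficients, so their signs are not independent, and the sign in the interaction follows from the genotype contrasts. The signs were not opposite in every alternative: in KO over time both were negative under limma-voom and, in edgeR, without day 39 KO replicate 1 (Tbxas1 at -11.31), and without that library Tbxas1 was at 0 for KO against WT at day 39. In the interaction the fitted values were 16.56 ± 5.69 (SE) for Tbxas1, -12.75 ± 4.46 for Ptger4 and -19.04 ± 8.66 for Hpgds, each with an edgeR adjusted p of 0.324, and the median of all entries was -1.70. These values rest on groups at 0 to 3 counts and are no measure of size.

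The rest of the pathway was followed through a list of 82 other genes, 80 of which were counted and 40 tested. In each of the 6 contrasts, 0 of the 40 rose and 0 fell in the edgeR test with adjustment over all entries. At an unadjusted p under 0.05, 1 of the 40 passed in WT over time (2.5%, against 6.68% of all entries), and 6 passed in KO over time and in the interaction (15%, against 18.2% and 14.4%). For KO against WT, 3 passed at day 0 (7.5%, against 7.99%) and 4 at day 39 (10%, against 7.28%), and over both genotypes 4 passed (10%, against 19.2%). Over the 6 contrasts DESeq2 made 33 calls in 240 tests of these genes (13.8%, against 15.1% over all entries), and limma-voom made 3 (1.25%, against 1.93%). DESeq2 gave no adjusted p for some of the 40 genes, Acsl4, Mgll and Prkaca among them, and tests without one count as not called. The shares are also pooled over contrasts, so no comparison with the background is drawn from them. The DESeq2 calls were of 10 genes (Alox12e, Alox5, Arrb1, Pde4b, Pde4d, Pla2g2d, Prkar2a, Ptgis, Ptgr1 and Slco2a1), and those of limma-voom were of Prkaca, in 2 contrasts, and Prkar2a. Of the 80 genes, 16 had 0 counts in all 11 libraries, and 13 reached 10 counts in at least 6.

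Upstream of the cyclooxygenases, Mgll was detected in all 11 libraries, at 221 to 20026 counts. It encodes monoacylglycerol lipase, whose action on an endocannabinoid frees arachidonic acid. In libraries labelled knockout it was at 882 CPM ± 608 (SD, n = 3) at day 0 and 120 CPM ± 103 (n = 3) at day 39, and in wild type at 210 CPM ± 214 (n = 2) and 1427 CPM ± 1954 (n = 3). The day 39 WT mean was carried by replicate 2, at 3683 CPM, while replicates 1 and 3 were at 303 and 295 CPM. The KO against WT value at day 39 was -3.58 ± 1.56 on the log2 scale (SE), which did not pass (edgeR adjusted p = 0.491). Pla2g4a, the cytosolic phospholipase A2 that supplies most arachidonic acid for prostanoids, had 217 counts in day 39 WT replicate 2 and 0 in the other 10. That library was also the one with Ptgs2. Pla2g7, the platelet-activating factor acetylhydrolase, reached 10 counts in 7 libraries, as did the lysosomal phospholipase Pla2g15 and Lpcat3, which puts arachidonic acid into phospholipids.

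Among the other prostanoid enzymes, Cbr1, a carbonyl reductase that can act on prostaglandins, reached 10 counts in 9 libraries, with at most 2908. Ptgds, the lipocalin-type prostaglandin D synthase, reached 10 counts in 5 libraries, and Ptgis, the prostacyclin synthase, in 2. Of 7 other prostanoid receptor genes counted, none was tested, and Ptger2, Ptger3 and Tbxa2r had 0 counts in every library. Ptger2 encodes EP2, which like EP4 signals through Gs, and Tbxa2r encodes the receptor of the Tbxas1 product. Among the leukotriene receptors, Cysltr1 had 2633 counts in day 0 WT replicate 1, 1086 in day 39 KO replicate 2 and at most 7 elsewhere, and Cysltr2 and Oxgr1 had 0. Coro1a, coronin 1A, reached 10 counts in 8 libraries and Cmklr1, a receptor for chemerin, in 6.

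**Figure D5:**
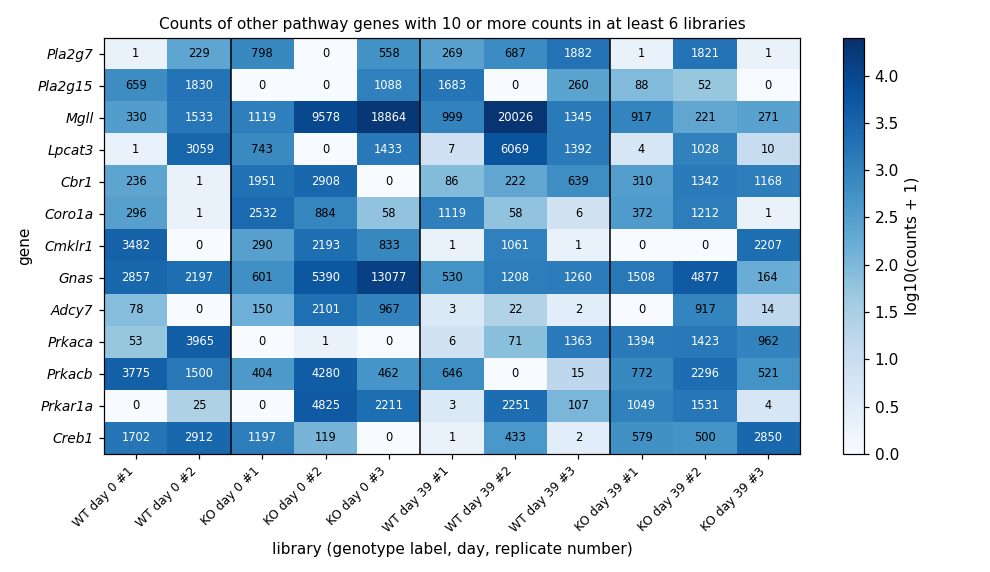
Raw counts of the 13 other pathway genes that reached 10 counts in at least 6 libraries (rows), by library (columns), with colour giving log10(counts + 1). Mgll and Gnas are read in all 11 libraries, and Prkaca has 0, 1 and 0 counts in day 0 KO.

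Downstream of EP4 and IP, 6 of 19 relay genes counted reached 10 counts in at least 6 libraries, 9 did so in 1 to 5 libraries and 4 in 0. Gnas, which encodes the Gs alpha subunit, had 164 to 13077 counts in all 11 libraries. It was at 514 CPM ± 5.12 (SD, n = 2) in day 0 WT, 549 CPM ± 400 (n = 3) in day 0 KO, 220 CPM ± 57.6 (n = 3) in day 39 WT and 467 CPM ± 463 (n = 3) in day 39 KO. In wild type both day 0 libraries were above all 3 day 39 libraries, as for 4.72% of entries, at -1.23 ± 2.05 on the log2 scale (SE; adjusted p = 0.806 in edgeR). The colon epithelial sum separated these WT groups the other way, and its part in the Gnas values was not tested. Prkacb, a catalytic subunit of protein kinase A, reached 10 counts in 10 libraries, and the cAMP-responsive factor gene Creb1 in 8. The adenylyl cyclase gene Adcy7 and the regulatory subunit gene Prkar1a reached 10 counts in 7.

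Prkaca, the other main catalytic subunit of protein kinase A, had the smallest unadjusted p of the 40 genes in 3 of the contrasts. It had 0, 1 and 0 counts in day 0 KO, 53 and 3965 in day 0 WT, 1394, 1423 and 962 in day 39 KO, and 6, 71 and 1363 in day 39 WT. The day 0 KO libraries were below both day 0 WT libraries and below all 3 day 39 KO libraries. For Prkaca the edgeR adjusted p was 0.381 for KO against WT at day 0, 0.273 for KO over time and 0.324 for the interaction. limma-voom gave 0.0204, 2.19e-05 and 0.146 for these, and DESeq2 gave no adjusted p for Prkaca. The colon epithelial sum also separated the KO groups, at 74.7 to 1341 CPM at day 0 and 4188 to 11370 CPM at day 39, and its part in the Prkaca values was not tested. In KO over time 8.07% of entries separated in that direction, and at day 0 5.25% were lower in every library labelled knockout.

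The sort markers were checked against the labels. H2-Ab1 had 12803 to 70551 counts, Csf1r 1329 to 12197 and C1qb 2606 to 11559, and 9 of the 16 macrophage and sort genes reached 10 counts in every library. The other 7 did not: Ptprc, Itgam and Fcgr1, the genes of CD45, CD11b and CD64, each had 0 or 1 counts in at least 1 library, Cd68 had 0 in day 0 KO replicate 2 and 1 in day 0 WT replicate 2, Adgre1 had 1 in day 0 WT replicate 1 and 3 in day 39 KO replicate 1, Cd14 had 3 to 3642 counts, and Mertk was at 0 throughout. Ly6c1 and Ly6c2, genes of the Ly6C that the sort excluded, went against the label in some libraries: Ly6c1 had 2323 counts in day 0 KO replicate 2, and Ly6c2 had 2100 in day 39 KO replicate 1, 556 in day 39 WT replicate 2 and 459 in day 0 KO replicate 1. Their sum was up to 302 CPM in day 0 KO, 0.357 in day 0 WT, 544 in day 39 KO and 102 in day 39 WT. Stromal genes were present too, with Col1a1 at 4814 counts or more in every library. Of 6 T cell genes 4 had 0 counts in all 11 libraries, while Cd4, which macrophages can also express, had up to 2328, and of 6 B and plasma cell genes 3 had 0, while Jchain had up to 1178 and Mzb1 up to 287. The part of these cells in the results was not tested.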

How the data were processed

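RNA-seq of 11 libraries of sorted mouse colon macrophages was analysed. Trizol RNA (500 ng) was made into Lexogen QuantSeq 3′ libraries, per the labels' protocols. The authors deposited whole-number counts per gene symbol (23282 entries, 44 of them repeats of a symbol). Per the submitters' processing notes, Bowtie2, edgeR and the build hg19 were used. hg19 is a human build while the organism and symbols are mouse, so the mouse build, counter, annotation, strand setting and use of molecular identifiers are not given in the sources used here, and no gene coordinates are printed outside the RefSeq promoter windows. PCR copies are not independent molecules.

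Groups and replicate numbers came from the titles. The file names give day 35 in place of day 39 and number 3 for WT day 0 replicate 2. No files held identical counts. The tests used edgeR 4.0.16 (R 4.3.3): filterByExpr (6987 tested, 16295 not), TMM scaling, robust dispersions and a quasi-likelihood fit of all 11 libraries with 1 coefficient per group, two-sided, with Benjamini-Hochberg adjustment over all tested entries. SE is the log2 fold change over the square root of F. DESeq2 1.42.0, limma-voom (limma 3.58.1), other scalings and filters, a replicate block and leaving out each library were alternatives. The test was checked on simulated counts. The genes, gene lists and contrasts were chosen with earlier results of these data known. The 10 genes were always named. Other pathway genes were named if they had 10 counts in 6 libraries, passed the edgeR test, or were a receptor or synthase at 0 in all. Pla2g4a, Ptgds, Ptgis, Alox5, Cysltr1 and the genes called only by DESeq2 or limma-voom were named after their values were seen.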

Additional observations from a re-analysis of the deposited data

How the results depend on the processing

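The count of called genes among the 6 tested depended on the test. edgeR called 0 in each of the 6 contrasts. DESeq2 called 3 for KO against WT at day 0 (Ptger4, Ptges3 and Hpgds), 1 at day 39 (Hpgds), 2 in WT over time (Ptger4 and Hpgds), 1 in KO over time (Hpgds), 3 in the interaction (Ptger4, Ptges3 and Hpgds) and 1 over both genotypes (Ptger4), and limma-voom called 1 at day 39 (Hpgds) and 3 in WT over time (Ptger4, Tbxas1 and Hpgds). A fit that was not robust called 1 over both genotypes (Ptger4), and leaving out a library gave 0 to 1 there, the 1 being Ptger4 without KO day 0 replicate 1. Among the other pathway genes DESeq2 made 33 calls and limma-voom 3, against 0. The cause of these differences was not tested. Over all entries DESeq2 called 1249, 585, 1183, 1144, 934 and 1216 in the order of the contrasts in the report, limma-voom 178, 34, 169, 207, 19 and 202, and edgeR 1, 2, 1, 11, 0 and 21. Other edgeR settings gave 0 to 2, 0 to 3, 0 to 5, 0 to 19, 0 to 5 and 2 to 59, and leaving out a library gave 0 to 5, 0 to 2, 0 to 1, 4 to 15, 0 to 5 and 4 to 60. At least 1 count in place of 10 gave 59 detected values in place of 36.

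Of 36 log2 fold changes (6 genes in 6 contrasts), 21 kept their sign under all alternatives. Ptgs1 reversed in WT over time, from -0.35 to 0.062 with library size only, 0.73 with counts of 10 or fewer set to 0 (chosen after the data were seen) and 0.80 with the replicate block, and in the interaction, from -0.91 to 0.975 with upper quartile and 0.092 with limma-voom. limma-voom also reversed Ptgs1 for KO against WT at day 0 (-0.39) and day 39 (-0.30), and in KO over time Ptger4 (-0.175) and Tbxas1 (-0.83). Ptges3 over both genotypes went from 0.33 to -0.93 with upper quartile, -0.18 with limma-voom and -1.17 with the replicate block. Leaving out each library moved Ptgs1 between -4.60 and 3.26 in WT over time, -8.34 and 3.34 in the interaction, -4.50 and 0.96 over both genotypes and -5.30 and 6.37 at day 39. It moved Alox5ap between -6.51 and 0.041 in KO over time, -4.11 and 9.04 at day 39, -2.67 and 7.82 in WT over time, -12.04 and 1.11 in the interaction and -2.11 and 3.08 over both genotypes. It moved Ptger4 between -6.60 and 3.89 in KO over time and -9.51 and 0.86 at day 39, Tbxas1 between -11.31 and 4.38 in KO over time, and Ptges3 between -1.09 and 1.28 over both genotypes. Where 1 WT day 0 library was left, it was assumed to vary like the other groups.

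The replicate block called 0 of the 6 tested genes in every contrast. Same-numbered libraries of different groups deviated together at correlations of -0.01 to 0.07 over 15 pairs, none above 0.1, and 6 of 11 libraries correlated best with their own number. The check and the block used the numbers in the titles. The file name gives number 3 for WT day 0 replicate 2, which had a correlation of 0.046 with KO day 0 replicate 3, the highest of the 30 other pairs. With groups of 2 or 3 libraries and this doubt about a number, the check cannot decide whether libraries were paired. Over all entries the block called 0, 1, 0, 12, 0 and 7. A fit of only the groups compared does not apply to the interaction or to both genotypes. The common biological coefficient of variation was 2.48, and with 2 or 3 libraries a group the absence of a call does not show equal levels.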

Other observations

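Some genes of the fixed lists were at 0 in all 11 libraries although related genes were abundant. Mertk, a receptor of resident macrophages that clears dying cells, had 0 counts in each library, while C1qc had 2549 or more. Crem and Adcy3 had 0 counts in all 11 as well, beside Creb1 with up to 2912. These genes were picked after their counts were seen, and neither the counting nor the tissue was tested as a reason.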
